A study of Mus musculus with 10 samples.

Results

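Mammalian kidney takes up filtered amino acids and breaks many of them down or rebuilds them, and the 44 genes described here encode enzymes of that work. They were taken by name, from a list of amino acid breakdown and creatine-arginine genes. That list was chosen with earlier results of these data known, so its shares beside those of all genes are descriptions only. Each is read through the brightest of the probe sets whose annotation gives that gene symbol alone. Of the 44, 43 had such a probe set and all 43 were tested, among 12196 named genes tested in the series. Amt, the aminomethyltransferase of the glycine cleavage system, had none and was not analysed here.

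The study measured transcripts in kidneys of male C57BL/6 mice, 30 months old, with 1 mouse per Affymetrix Mouse Genome 430 2.0 array. The Calorie Restricted diet group had 5 mice and the control diet group 5 mice. No transgene or drug is named for either group, and the degree and length of the restriction are not stated in the labels. Every value below is a MAS5 signal, a probe set's brightness on a linear scale in the authors' units, or a log2 difference, calorie restricted minus control. A difference is said to pass when its adjusted p was below 0.05 in limma, adjusted by Benjamini-Hochberg over the 22517 probe sets tested.

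In the proximal tubule, cells take up and metabolise amino acids from the filtrate. Transamination moves the nitrogen of many of them onto glutamate, and the carbon skeletons go on to energy supply or glucose. Kidney is also known for making arginine from citrulline, for the first step of creatine synthesis (arginine plus glycine gives guanidinoacetate), for making serine from glycine, and for degrading D-amino acids, tyrosine and kynurenines. Part of sulfur amino acid metabolism, where homocysteine is turned to cysteine or back to methionine, runs there as well.

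Of the 43 measured enzymes, 7 rose in calorie-restricted kidney and 3 fell, while 33 did not pass. The 7 that rose were Cbs, Sardh, Haao, Shmt2, Dao, Hibadh and Got2, and the 3 that fell were Ddc, Oat and Arg2. The share that rose was 16.3%, where 3.08% of all named genes tested rose, and the share that fell was 6.98%, where 3.02% of all genes fell. Many members were bright, and bright genes rose more often. Of the 22 members with a mean log2 signal of at least 12, 27.3% rose, where 17.6% of all named genes that bright rose. The differences of the 43 ran from -1.22 (Arg2) to 0.93 (Cbs), with 26 above 0 and 17 below. Their median was 0.081, against -0.0052 over all named genes tested. The side of 0 depended on the scaling: after quantile normalization the median was -0.016 with 21 of 43 above 0, and after median centring of each array -0.017 with 19 of 43 above 0. In 4 members the 5 calorie-restricted values all lay above the 5 control values, and in 1 member all lay below. Over all named genes these shares were 3.8% and 3.69%. The genes were not a block that moved one way: 7 rose and 3 fell, as the plot of differences by pathway shows. The falls of Arg2 and Oat were on consecutive steps, from arginine to ornithine and onward. In bulk kidney, fewer cells of a type and less RNA per cell cannot be told apart.

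**Figure D1:**
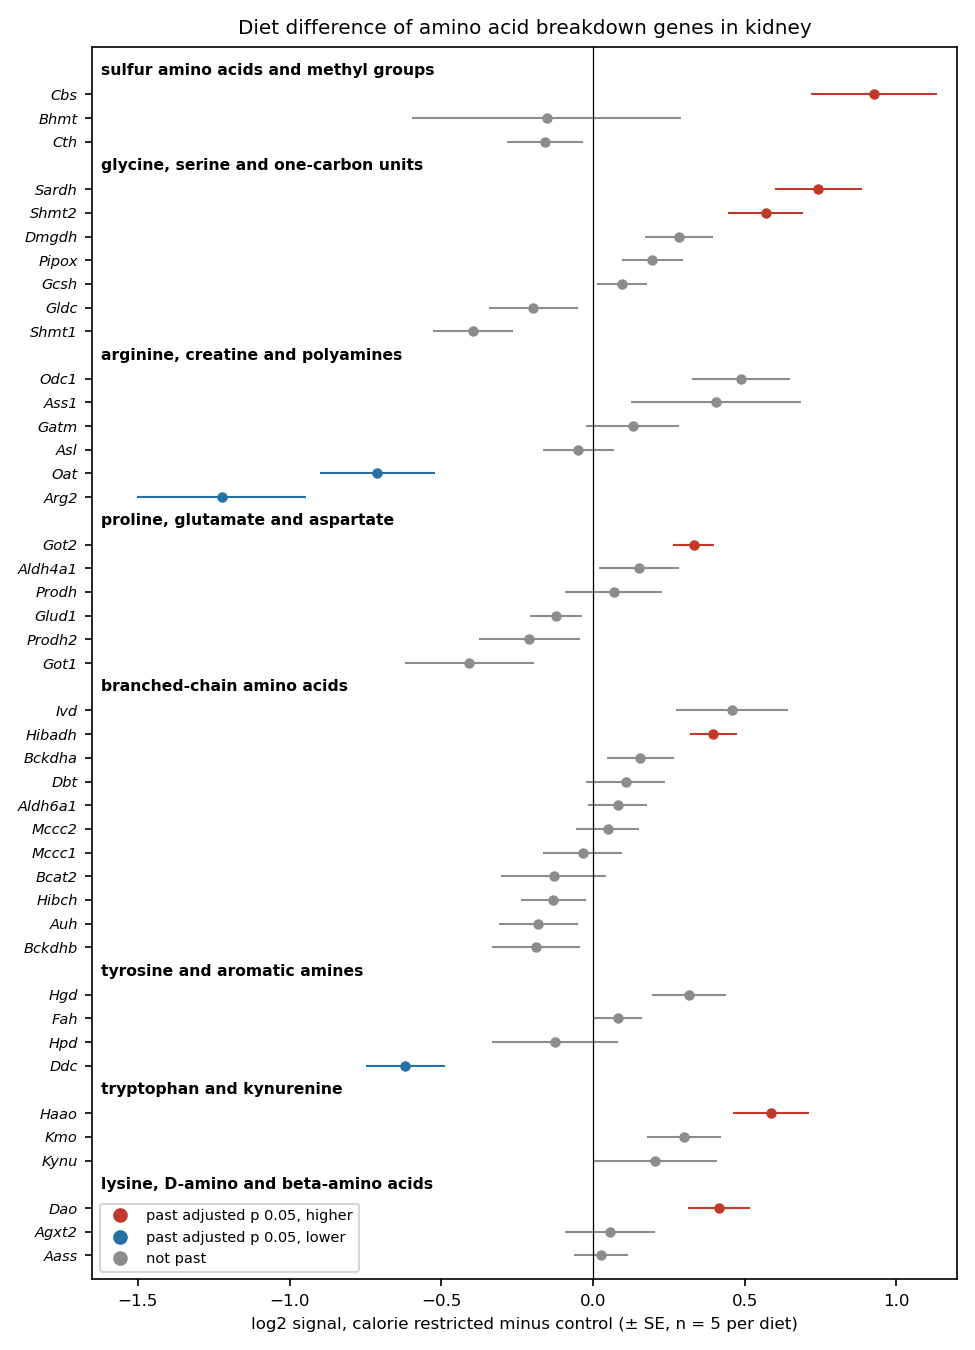
Difference of each of the 43 measured genes on the log2 scale, calorie restricted minus control, with its standard error (n = 5 per diet), grouped by amino acid pathway and ordered by size within each group. Red points passed as higher, blue points as lower, and grey points did not pass: Cbs (0.93) and Arg2 (-1.22) mark the ends.

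RNA quality and cell-type markers moved with the diet, and their part in these results was not tested. The log2 ratio of 3' to 5' control probe sets, which goes up when RNA is shorter, averaged 1.67 ± 0.46 on calorie-restricted arrays and 1.05 ± 0.26 on control arrays (SD, n = 5 each, 2-sided exact permutation p = 0.0476, where 0.00794 is the smallest possible). Calorie-restricted arrays 1, 2 and 3 had 2.21, 2.01 and 1.75, above every control, and arrays 4 and 5 had 1.24 and 1.16. Proximal tubule markers were bright, as the tissue label calls for, and 14 of 21 rose and 0 fell. Over all named genes tested 3.08% rose and 3.02% fell. Among those with a mean log2 signal of at least 12, 17.6% rose. Summed signals of the proximal tubule markers were 345268 to 411398 on calorie-restricted arrays and 242346 to 301345 on control arrays. Those of the thick limb and distal tubule markers were 79888.9 to 92883.7 in calorie restriction and 66411.4 to 83458.5 in controls. Of 8 macrophage markers 4 fell, with summed signals of 12580.7 to 17769.8 in calorie restriction and 15510 to 26498.7 in controls. Of 5 podocyte markers 2 fell, of 6 stromal markers 1 fell and of 4 adipocyte markers 2 fell, while 0 of 8 thick limb and distal, 0 of 7 collecting duct and 0 of 6 endothelial markers passed. Of 6 tested liver markers 1 rose, Alb (1.53, adjusted p = 0.0312), and 0 fell. Differences were above 0 in 5 of these 6. Apoa1 differed by 1.37 (limma adjusted p = 0.0566), Apoa2 by 0.64 and Cyp2c29 by 0.53, none past the threshold. Ttr averaged 9716 ± 873 in calorie restriction and 9089 ± 2315 in controls (0.13), and Fgb differed by -0.73, neither past the threshold. Alb read 1435, 901, 741, 3747 and 1697 on calorie-restricted arrays 1 to 5, against 499, 829, 333, 562 and 391.5 on control arrays 1 to 5. The liver arginase Arg1 read 121, 3.6, 2.5, 86.7 and 20.3 in calorie restriction, against 11.6, 3.2, 13.5, 5.7 and 4.4 in controls. Array 4 was thus the highest for Alb and array 1 for Arg1, and for Arg1 arrays 1 and 4 stood apart from the rest. Apoa1, Ahsg and Cps1 were also highest on calorie-restricted arrays 1 and 4 (Apoa1 351 and 517, Ahsg 139 and 139, Cps1 335 and 270).

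Promoter sequences are shown for 4 of the genes that passed: Cbs, with the largest rise, Oat, one of the falls, and Got2 and Haao, whose promoters hold a half-site of HNF1, a transcription factor of the proximal tubule. Each line gives the 250 bases before the start site, 5' to 3' on the gene's strand, from RefSeq on GRCm38.p6, with motif matches in capitals.
Cbs: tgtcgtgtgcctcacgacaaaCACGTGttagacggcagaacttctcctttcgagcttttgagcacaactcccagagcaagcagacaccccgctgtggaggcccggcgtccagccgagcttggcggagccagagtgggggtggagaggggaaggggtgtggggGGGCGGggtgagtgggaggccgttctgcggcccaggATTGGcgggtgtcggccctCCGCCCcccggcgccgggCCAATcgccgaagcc
Oat: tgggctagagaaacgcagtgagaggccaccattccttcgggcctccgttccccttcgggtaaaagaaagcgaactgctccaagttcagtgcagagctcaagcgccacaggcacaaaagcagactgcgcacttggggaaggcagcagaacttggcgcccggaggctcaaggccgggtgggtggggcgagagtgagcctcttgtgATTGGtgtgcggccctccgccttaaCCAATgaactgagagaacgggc
Got2: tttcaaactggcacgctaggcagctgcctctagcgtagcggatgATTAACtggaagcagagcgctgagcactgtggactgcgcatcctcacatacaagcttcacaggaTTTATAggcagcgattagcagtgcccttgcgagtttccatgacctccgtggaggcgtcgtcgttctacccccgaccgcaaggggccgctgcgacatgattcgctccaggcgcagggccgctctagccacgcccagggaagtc
Haao: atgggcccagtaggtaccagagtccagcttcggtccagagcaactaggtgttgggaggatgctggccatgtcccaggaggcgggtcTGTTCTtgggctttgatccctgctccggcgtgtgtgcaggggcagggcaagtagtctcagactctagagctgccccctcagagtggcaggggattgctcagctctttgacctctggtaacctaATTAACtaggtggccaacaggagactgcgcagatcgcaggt
The positions, all on the minus strand, are chr17:31637206-31637455 for Cbs, chr7:132576399-132576648 for Oat, chr8:95888402-95888651 for Got2 and chr17:83846791-83847040 for Haao. Counted back from the start site to the first base of the match, Cbs has an E-box at 229, a GC box at 88 and 33, and a CCAAT box at 52 and 15. Oat has a CCAAT box at 47 and 22. Got2 has the HNF1 half-site at 206 and a TATA box at 142, and Haao has it at 41, with a steroid receptor half-site at 164. The promoter table held 39 of the 44 genes, with 46 start sites. These motifs were searched on both strands over the same 250 bases, and matches of different motifs could overlap. The CCAAT box (CCAAT) was in 22 of the 46 member promoters (47.8%) and in 33.8% of all 32851 promoters, and the GC box (GGGCGG) in 37.0% of member promoters and 32.7% of all. The HNF1 half-site (GTTAAT) was in 8.7% of member promoters and 6.43% of all, the HNF4 half-site (CAAAGTC) in 10.9% of member promoters and 3.84% of all, and the E-box (CACGTG) in 8.7% of member promoters and 6.02% of all. Over member promoters, and then over all, the TATA box (TATAAA) was in 10.9% and 12.4%, the steroid receptor half-site (AGAACA) in 6.52% and 16.1%, and the C/EBP-ATF core (TGATGNAA) in 2.17% and 3.45%. Of the 10 genes that passed, 7 had a single start site in the promoter table. Of those not shown, Shmt2 and Sardh held none of these motifs, and Hibadh held CCAAT and GC boxes. The Haao stretch lies within the annotated span of the gene, chr17:83831348-83848981. Matches are descriptions of letters and show no binding.

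Homocysteine metabolism held the largest rise. Cbs, cystathionine beta-synthase, joins homocysteine to serine and commits sulfur to cysteine (chromosome 17). It read 2152, 2505, 2853, 1939 and 1815 on calorie-restricted arrays 1 to 5, against 1942, 1057, 974, 785 and 1387 on control arrays 1 to 5. Calorie-restricted arrays 1 to 3 lay above every control, while arrays 4 and 5 lay just below control 1, so the diets overlapped. The mean was 2253 ± 426 in calorie restriction and 1229 ± 454 in controls (SD, n = 5 each), a difference of 0.93 ± 0.21 (SE, limma adjusted p = 0.0265). A dimmer Cbs probe set differed by 0.47 and did not pass (adjusted p = 0.150). Cth, which cleaves cystathionine to cysteine, averaged 6172 ± 936 in calorie restriction and 6904 ± 1122 in controls, a difference of -0.16 ± 0.13 that did not pass. Bhmt, which remethylates homocysteine with betaine, read 2204, 1123, 906, 1328 and 752.5 on calorie-restricted arrays and 319, 1998, 1568, 1859 and 2050 on control arrays. Its difference was -0.15 ± 0.44, the widest standard error of the 33 genes that did not pass, and control array 1 lay far below the other controls.

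Of the 7 measured enzymes of glycine, serine and one-carbon units, 2 rose. Sardh, sarcosine dehydrogenase, oxidises sarcosine to glycine and passes the methyl carbon to folate (chromosome 2). Its signal was 7367, 7420, 6996, 5532 and 4772 in calorie-restricted kidney, against 4604, 3343, 3671, 3099.5 and 4384 in control kidney. Every calorie-restricted array was above every control, with arrays 4 and 5 the closest. Means of 6418 ± 1197 in calorie restriction and 3820.3 ± 652 in controls gave a difference of 0.74 ± 0.14 (adjusted p = 0.0194). The other Sardh probe set rose too, by 0.90 ± 0.20 (adjusted p = 0.0269), again with no overlap. Shmt2, the mitochondrial serine hydroxymethyltransferase, exchanges serine and glycine while loading or unloading folate (chromosome 10). It read 7430.4, 8009, 7328, 6809 and 6441 in calorie restriction, against 6536, 4173, 4365, 4191 and 5325 in controls. Control array 1 reached into the calorie-restricted range and the other 4 controls did not. Means of 7204 ± 603 in calorie restriction and 4918 ± 1021 in controls differed by 0.57 ± 0.12 (adjusted p = 0.0236), and 3 dimmer Shmt2 probe sets differed by 0.26, 0.43 and 0.33 without passing.

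The other members of that group did not pass. Dmgdh, which oxidises dimethylglycine to sarcosine just before Sardh, differed by 0.28 ± 0.11 (adjusted p = 0.126). Pipox, a peroxisomal oxidase of pipecolate and sarcosine, differed by 0.20, and the glycine cleavage proteins Gcsh and Gldc by 0.10 and -0.20. Shmt1, the cytosolic partner of Shmt2, stood on the other side of 0, at 1508 ± 195 in calorie restriction and 1993 ± 327 in controls, a difference of -0.40 ± 0.13 (adjusted p = 0.0832). All 4 Shmt1 probe sets were below 0, and the dimmest, at means of 114 in calorie restriction and 344 in controls, passed as lower (adjusted p = 0.0466).

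Arg2 and Oat, which break down arginine and ornithine, both fell. Arg2, the mitochondrial arginase that splits arginine to ornithine and urea, had the largest fall of the 43 (chromosome 12). Its signals were 296, 385, 279.7, 404 and 467 on calorie-restricted arrays, against 350.2, 1087, 1109, 1084 and 914 on control arrays. Control array 1 lay within the calorie-restricted range, and the other 4 controls were far above it. The averages were 366 ± 78.0 in calorie restriction and 909 ± 322 in controls, a difference of -1.22 ± 0.28 (adjusted p = 0.0274). A dimmer Arg2 probe set fell as well, by 1.05 on the log2 scale (adjusted p = 0.0479). Oat, ornithine aminotransferase, moves ornithine toward glutamate and proline (chromosome 7). It read 3302, 3055, 3073, 5223 and 4815 in calorie restriction, against 4079.8, 7981, 7097, 6499.9 and 6102 in controls. Calorie-restricted arrays 1 to 3 lay below every control, and arrays 4 and 5 lay above control 1. The means were 3893 ± 1042 in calorie restriction and 6352 ± 1454 in controls, a difference of -0.71 ± 0.19 (adjusted p = 0.0431).

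By the probe sets used, no enzyme of arginine or creatine synthesis passed, and the one used for Ass1 was dim. Gatm, the amidinotransferase that makes the creatine precursor guanidinoacetate, averaged 7696 ± 766 in calorie restriction and 7202 ± 1865 in controls, a difference of 0.13 ± 0.15 (adjusted p = 0.626). Asl, argininosuccinate lyase, differed by -0.05 ± 0.12. Ass1, argininosuccinate synthase, was read through a dim probe set at 167 ± 63.6 in calorie restriction and 121 ± 25.5 in controls (0.41 ± 0.28, adjusted p = 0.379). A far brighter probe set, annotated to both Gm5424 and Ass1, had means of 20042 in calorie restriction and 14443 in controls and was not used. Odc1, ornithine decarboxylase, opens polyamine synthesis and is known in mouse kidney as an androgen-responsive gene. It read 9964, 10359, 12416, 6640 and 7632 in calorie restriction, against 8599, 6879, 5596, 6379 and 5694 in controls, a difference of 0.49 ± 0.16 that did not pass (adjusted p = 0.0815). The dimmest of 3 Odc1 probe sets passed as higher (0.81, adjusted p = 0.0341).

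Among enzymes of proline, glutamate and aspartate, 1 of 6 passed. Got2, the mitochondrial aspartate aminotransferase and a part of the malate-aspartate shuttle, showed the tightest separation (chromosome 8). Calorie-restricted arrays gave 13570.5, 13989, 13823, 13582 and 12842, against 10054, 11019, 11334, 10269 and 11241 on control arrays. The lowest calorie-restricted array was above the highest control, and the means of 13561 ± 439 in calorie restriction and 10783 ± 584 in controls differed by 0.33 ± 0.068 (adjusted p = 0.0212). A dimmer Got2 probe set differed by -0.21 ± 0.14 and did not pass (adjusted p = 0.353). Got1, the cytosolic enzyme of the same reaction, had a difference of -0.41 ± 0.21 (adjusted p = 0.238). The mitochondrial glutamate dehydrogenase Glud1 differed by -0.12, the proline oxidase Prodh by 0.07, Prodh2, an oxidase of hydroxyproline, by -0.21, and the next enzyme of proline breakdown, Aldh4a1, by 0.15, none past the threshold.

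Of 11 genes of branched-chain amino acid breakdown 1 rose (9.09%, where 3.08% of all genes rose) and 0 fell. That gene, Hibadh, had a mean log2 signal of 14.0, and 29.5% of all named genes at 13 and over rose. Hibadh, 3-hydroxyisobutyrate dehydrogenase, acts late in valine breakdown (chromosome 6). It read 20361, 20467, 18363, 18140.5 and 17025 in calorie restriction, against 15676, 14575, 12873, 13871 and 14632 in controls. The diets did not overlap, and the means of 18871 ± 1497 in calorie restriction and 14326 ± 1036 in controls differed by 0.40 ± 0.078 (adjusted p = 0.0198). A second bright Hibadh probe set differed by -0.13 ± 0.12 (adjusted p = 0.529), so the rise rests on 1 of 2 probe sets. After quantile normalization the difference of the brightest was 0.18 and did not pass (limma adjusted p = 0.123). Ivd, isovaleryl-CoA dehydrogenase of leucine breakdown, differed by 0.46 ± 0.18 without passing (adjusted p = 0.135). The aminotransferase Bcat2 (-0.13) and the branched-chain ketoacid dehydrogenase subunits Bckdha (0.16), Bckdhb (-0.19) and Dbt (0.11) did not pass. Nor did the leucine enzymes Mccc1 (-0.03), Mccc2 (0.05) and Auh (-0.18) or the valine enzymes Hibch (-0.13) and Aldh6a1 (0.08). A dimmer Mccc2 probe set fell (-0.85, adjusted p = 0.0444), at means of 376 in calorie restriction and 668 in controls.

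Of the measured enzymes of aromatic amino acids, Ddc fell, Haao rose and the others did not pass. Ddc, aromatic L-amino acid decarboxylase, makes dopamine from L-DOPA in the proximal tubule (chromosome 11). It read 2964, 2796, 2483, 2769 and 2587 in calorie restriction, against 3336, 4896, 5093, 3269 and 4616 in controls. All calorie-restricted arrays were below all controls, and the means of 2719.6 ± 188 in calorie restriction and 4242 ± 874 in controls differed by -0.62 ± 0.13 (adjusted p = 0.0228). The 3 enzymes of tyrosine breakdown did not pass: Hpd differed by -0.13 ± 0.21, Hgd by 0.32 ± 0.12 and Fah by 0.08 ± 0.082. Of the kynurenine enzymes of tryptophan breakdown 1 of 3 rose. Haao, which makes the quinolinate precursor on the way to NAD, read 6344, 6899.9, 6518, 5485 and 4932 in calorie restriction, against 4964, 3227, 3709, 3779 and 4501 in controls (chromosome 17). Only calorie-restricted array 5 was below a control, array 1, and the means of 6036 ± 806 in calorie restriction and 4036 ± 690.2 in controls differed by 0.59 ± 0.13 (adjusted p = 0.0236). Kmo, which hydroxylates kynurenine, differed by 0.30 ± 0.12 (adjusted p = 0.139) and Kynu, which cleaves it, by 0.20 ± 0.20.

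D-amino acid oxidase rose, and the 2 enzymes grouped with it did not pass. Dao oxidises D-serine and other D-amino acids in proximal tubule peroxisomes (chromosome 5). Its signals were 13436, 14103, 13604, 10540.1 and 10598 in calorie restriction, against 9634, 8518, 9181, 8715 and 10406 in controls. The diets did not overlap, though calorie-restricted arrays 4 and 5 stood close to control 5. Means of 12456 ± 1740.4 in calorie restriction and 9291 ± 759 in controls differed by 0.42 ± 0.10 (adjusted p = 0.0335). Aass, which starts lysine breakdown, differed by 0.03 and Agxt2, a mitochondrial aminotransferase of beta-aminoisobutyrate and dimethylarginine, by 0.06.

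**Figure D2:**
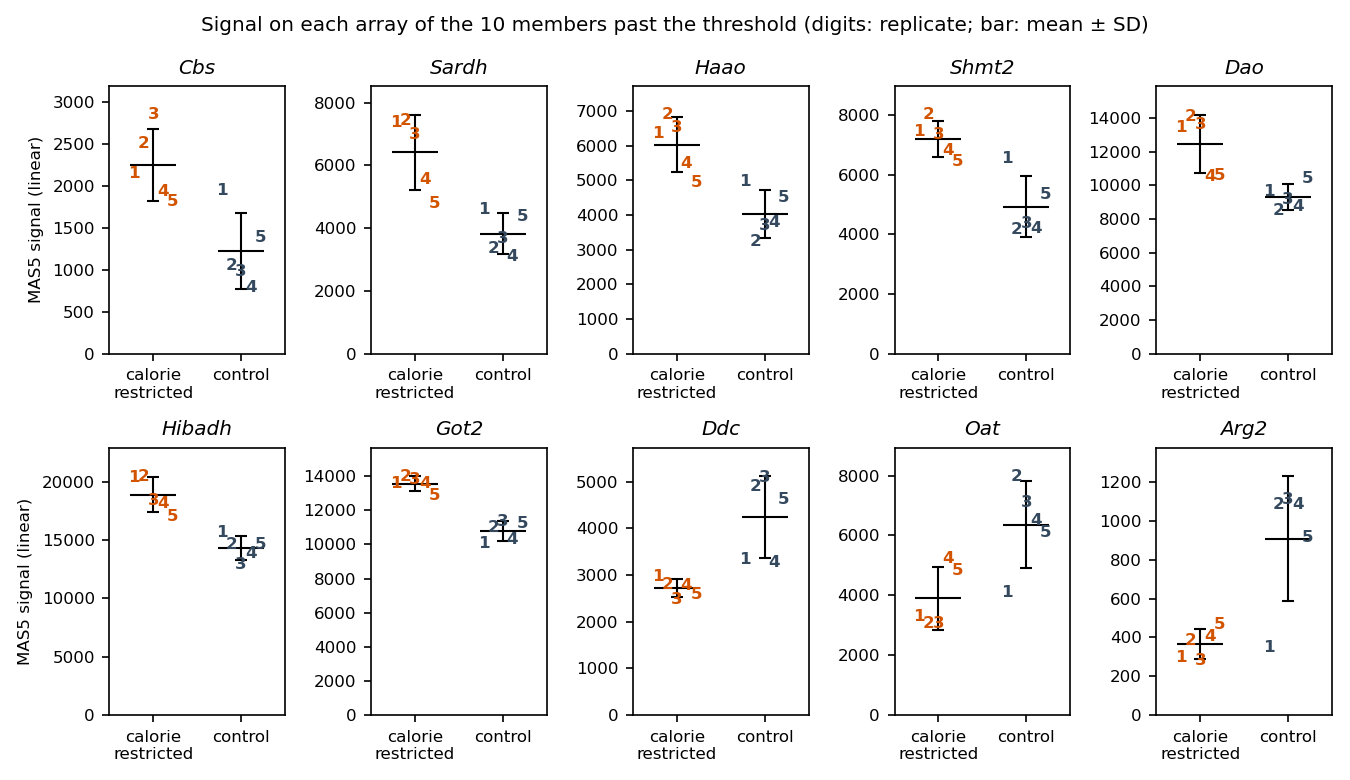
Signal of the 10 genes that passed, on each array, on a linear axis from 0: orange digits are calorie-restricted replicates and dark digits control replicates, with the mean ± SD (n = 5 per diet). Calorie-restricted replicate 5 and control replicate 1 most often stand nearest the other diet, as for Haao and Arg2.

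The 33 genes that did not pass had differences from -0.41 to 0.49, with 23 of them under 0.2 in size, and adjusted p from 0.0815 to 0.897. Most members had 1 probe set (26 of 43). The 10 that passed had 8 other tested probe sets over 6 genes. Of these, 6 had the direction of the brightest, 2 passed in that direction (Sardh and Arg2) and 0 passed in the opposite one.

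Arrays within a diet were not alike. Among the 10 genes that passed, control array 1 was the control nearest calorie restriction in 7, and calorie-restricted array 5 was nearest the controls in 7. Over all 43 genes control array 4 was the lowest control in 19 and the highest in 0, and control array 1 the highest in 19. The median deviation of the 43 genes from their means was -0.21 on control array 4 and between -0.067 and 0.15 on the other 9 arrays.

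**Figure D3:**
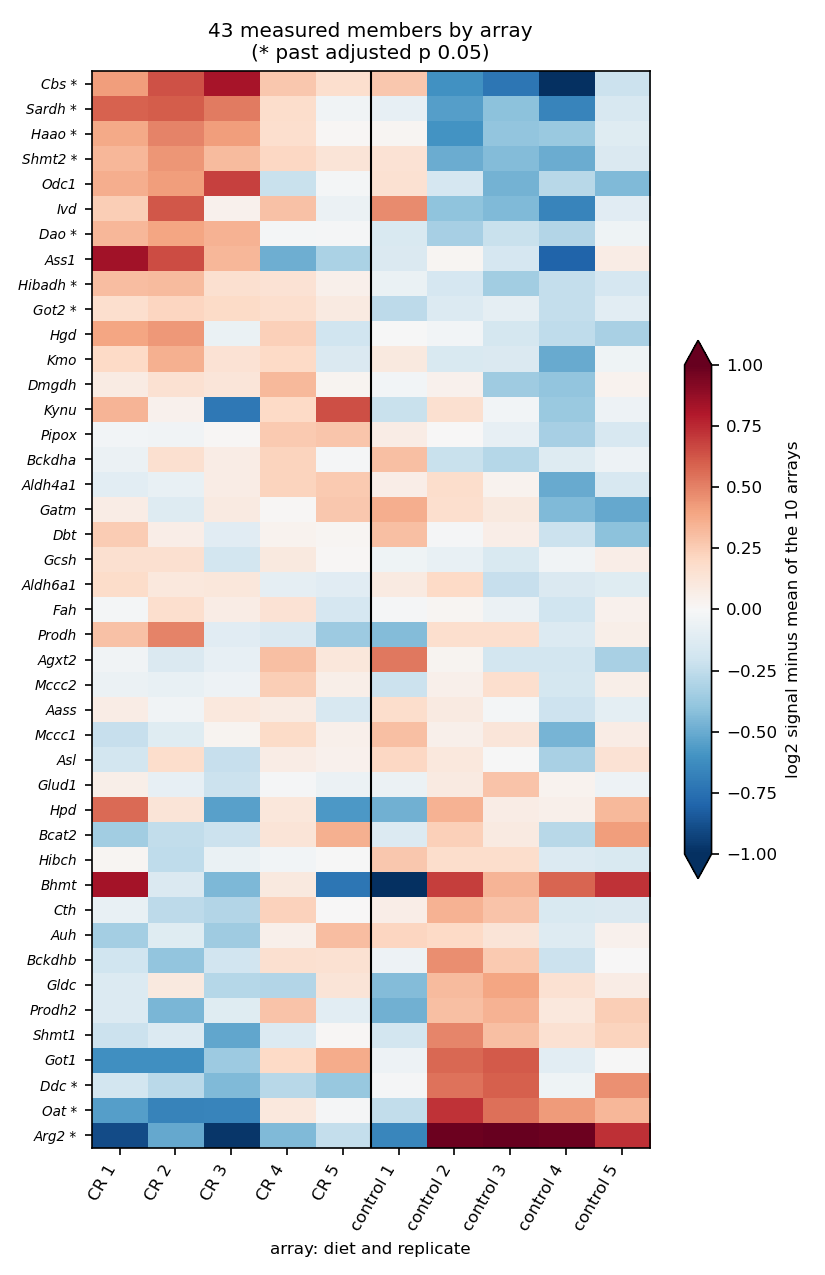
Log2 signal of each of the 43 genes minus its mean over the 10 arrays, by diet and replicate, ordered from the largest positive to the largest negative difference; asterisks mark the 10 that passed and the colour scale ends at -1 and 1. Control replicate 1 is like calorie restriction for Arg2, and calorie-restricted replicates 4 and 5 are paler than 1 to 3 for most of the 10.

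Differences varied with brightness over all genes, and the part of this in the rises was not tested. At the authors' scaling, the 1088 named genes with a mean log2 signal of at least 12 had a median difference of 0.14. Of these genes 17.6% rose and 0.643% fell. Of the 22 members that bright, 6 rose (27.3%) and 1 fell, with a median of 0.14. After quantile normalization, which makes the signal distributions of all arrays equal, the medians were 0.077 for these members and 0.011 for these genes. Then 6 of the 43 passed, where 3.31% of all named genes did: Cbs, Sardh, Shmt2, Haao, Ddc and Arg2. The 3 brightest rises became smaller and did not pass: Hibadh 0.18, Got2 0.17 and Dao 0.27. Oat was -0.76 with an adjusted p of 0.0506.

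**Figure D4:**
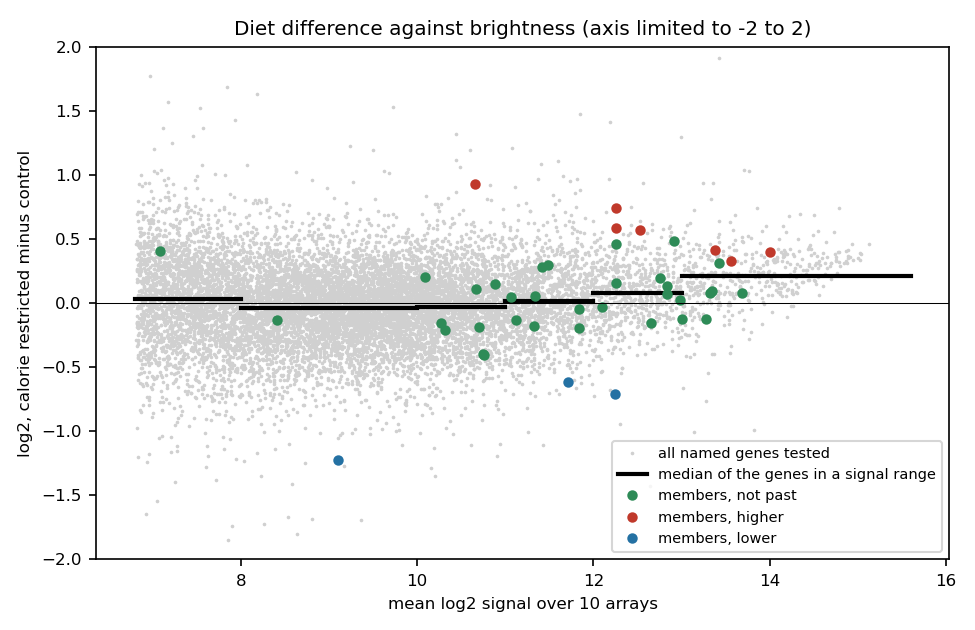
Difference of every named gene tested (grey, axis limited to -2 to 2) against its mean log2 signal over 10 arrays, with the median in each signal range as a black line and the 43 genes in colour. The black line reaches 0.21 at 13 and over, where 3 of the 9 members and 29.5% of all named genes rose.

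Few or no members passed when the RNA quality ratio was taken into account. With that ratio added as a covariate 0 of 43 passed (12 had an unadjusted p under 0.05), and 0.0574% of all named genes did. Counts at an unadjusted p, here and below, have no share over all genes beside them and are not read as a result. With replicates 4 and 5 of each diet alone, whose ratios were 1.24 and 1.16 in calorie restriction and 1.39 and 1.25 in controls, 1 of 43 passed, Arg2 (-1.20, adjusted p = 0.0274), and 1.01% of all genes did. Without calorie-restricted arrays 1 and 4, the highest for Arg1, 0 of 43 passed (12 with an unadjusted p under 0.05), and 0.197% of all genes did. The sign of all 10 differences stayed in each of these fits, whose arrays were among those used to pick the 10. With the covariate, Cbs differed by 0.86, Shmt2 by 0.48, Got2 by 0.31, Ddc by -0.59 and Arg2 by -1.09, near their values without it. Smaller values were those of Dao (0.20), Sardh (0.49), Haao (0.37), Hibadh (0.30) and Oat (-0.36).

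**Figure D5:**
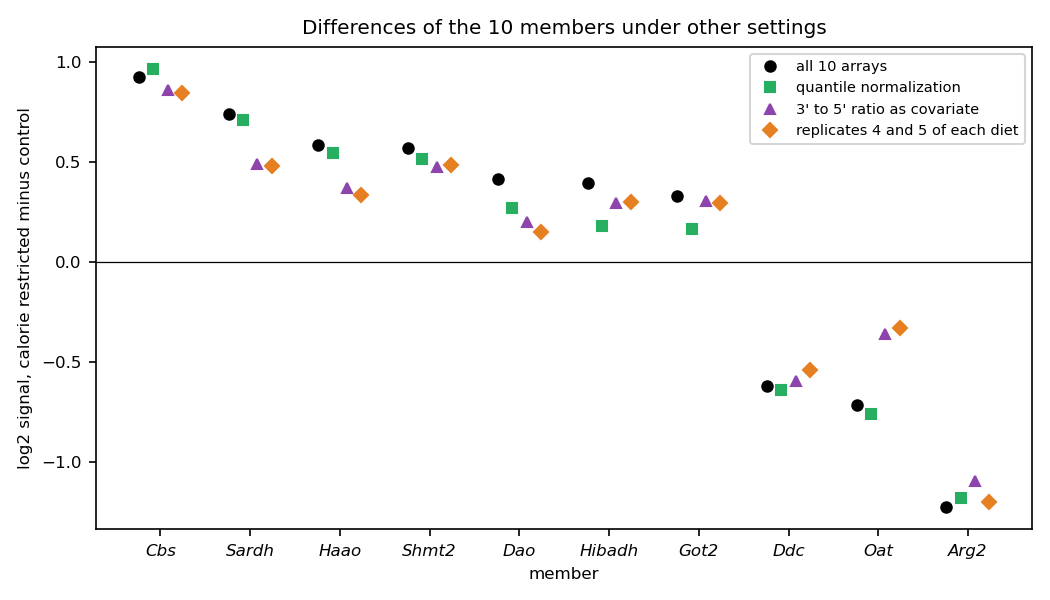
Difference of the 10 genes on the log2 scale over all 10 arrays (circles), after quantile normalization (squares), with the 3' to 5' ratio as covariate (triangles) and in replicates 4 and 5 of each diet alone (diamonds). No point crosses 0; Oat and Dao shrink most with the covariate and in replicates 4 and 5, Hibadh and Got2 after quantile normalization.

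Around the 44, 102 further genes of the same pathways were listed, and 77 of them were tested. Of these 4 rose (5.19%) and 0 fell in limma, where 3.08% of all named genes rose and 3.02% fell. At an unadjusted limma p under 0.05, 15 were higher and 7 lower, and the median difference was 0.10. Glyat, which conjugates glycine to acyl groups, read 22755 ± 2759 in calorie restriction and 15465 ± 1625 in controls (0.55 ± 0.095, adjusted p = 0.0152). Bckdk, the kinase that switches off the branched-chain ketoacid dehydrogenase, averaged 1933 ± 209 in calorie restriction and 1420.0 ± 173 in controls (0.45 ± 0.11, adjusted p = 0.0388). Sqor, which oxidises the hydrogen sulfide that Cbs and Cth can make, rose by 0.37 ± 0.080 (adjusted p = 0.0236). Qdpr regenerates the biopterin cofactor of aromatic amino acid hydroxylases and rose by 0.36 ± 0.082 (adjusted p = 0.0268). The same 4 were the only ones of the 77 whose diets did not overlap (5.19%, all higher). Over all named genes these shares were 3.8% higher and 3.69% lower. Glyat and Qdpr had mean log2 signals of 14.2 and 14.3, and 29.5% of all named genes at 13 and over rose. After quantile normalization Glyat (0.31, limma adjusted p = 0.0582) and Qdpr (0.12, 0.259) did not pass, while Bckdk (0.48) and Sqor (0.33) did. Of the creatine genes in the list, the methyltransferase Gamt differed by 0.23 ± 0.16 and the transporter Slc6a8 by 0.35 ± 0.14, neither past the threshold. Among the genes too dim to test were the liver enzymes Arg1, Otc, Tat, Tdo2 and Hal.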

How the data were processed

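Kidney RNA of 10 mice, 5 per diet, was hybridised to 1 array each. The deposited intensity values are the authors' MAS5 signals, per the submitters' processing notes, which name Affymetrix Expression Console and no version. The trimmed mean (2% off each end) was 500.0 on each array, so the deposited values were scaled to a common trimmed mean. Means over all probe sets were 786 to 831 on calorie-restricted and 755 to 768 on control arrays.

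Signals below 1 were set to 1 and log2 was taken. Of 45101 probe sets, 64 controls were left out and those with a mean log2 signal of at least 6.81, the median, were tested in limma 3.58.1 under R 4.3.3 (lmFit, eBayes with trend, 2-sided, adjusted over 22517 probe sets), after the fit had been tested on simulated data. Genes were named from the platform annotation where it gave 1 symbol, and the probe set with the highest mean log2 signal stood for a gene. Members past the threshold were named with every array; other members by difference, range or count; up to 4 other genes per pathway group past the threshold were named. Replicate numbers did not pair arrays (same-number correlations -0.14 to -0.087). The members and lists were chosen with earlier results of these data known. P-values rest on the spread among these mice, and the number of arrays limits the precision. Alternatives were other normalizations, filters, eBayes settings, a 3' to 5' covariate, subsets of arrays, each array left out and averaging over a gene's probe sets. The fit without calorie-restricted arrays 1 and 4 was added after the data were seen. Promoters came from RefSeq (GRCm38.p6).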

Additional observations from a re-analysis of the deposited data

Results flagged for a closer look

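In 3 of 86 groups of 5 arrays, 1 array stood apart from the rest by Dixon's ratio of gap to range, where the 95% critical value is 0.71 and chance gives about 1 in 20 groups. Bhmt was lowest on control array 1, at 319 against 1568 on the next control (ratio 0.856). Arg2 was lowest on the same array, at 350.2 against 914 (0.832), and without that array its difference was -1.54 with an adjusted p of 0.000613. Ass1, a dim probe set, was lowest on control array 4, at 78.1 against 121 (0.724).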

How the results depend on the processing

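Counts of members past the threshold depended on the setting, while the 10 genes that passed kept their sign in all 23 alternatives. Other filters, other eBayes settings and the replicate block leave each difference as it was, so no sign could change there. In the remaining alternatives the signs are no independent support, because the 10 were picked on these same arrays. The 7 higher members became 4 after quantile normalization, 3 when a gene's probe sets were averaged, 1 with no filter (287 of 45037 probe sets past) and 0 with eBayes without trend (243 probe sets past; 16 members at an unadjusted p under 0.05). They were 0 with the 3' to 5' covariate, with calorie-restricted replicates 4 and 5 set against the 5 controls (10 unadjusted), with replicates 4 and 5 of each diet alone, with the replicate block and with calorie-restricted replicates 2, 3 and 5. The 3 lower members became 1 with no filter, in replicates 4 and 5 alone and with the replicate block (15 members at an unadjusted p under 0.05), 2 after quantile normalization, 4 after median centring (Shmt1 gained) or averaging of probe sets, and 0 with eBayes without trend, the covariate, calorie-restricted replicates 4 and 5 or calorie-restricted replicates 2, 3 and 5. With 1 array left out the counts ran from 0 to 9 higher and 0 to 4 lower: in all 0 passed without calorie-restricted array 2 (13 unadjusted) or control array 2 (15 unadjusted), 1 without calorie-restricted array 1, 2 without calorie-restricted array 3, 3 without control array 3 or 4, 8 without control array 5, 11 without calorie-restricted array 4 or 5 and 13 without control array 1. The 10 genes differ in this: Sardh and Hibadh passed in 7 of the 10 such fits, Arg2 and Oat in 3.

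The 4 higher genes among the other pathway genes became 2 after quantile normalization or median centring, 1 with no filter, eBayes without trend or the replicate block, 8 at a threshold of 0.10, and 0 with the covariate, calorie-restricted replicates 4 and 5, replicates 4 and 5 alone or calorie-restricted replicates 2, 3 and 5. With 1 array left out 1 to 7 were higher and 0 to 3 lower; Glyat passed in all 10 such fits. The median of the members turned to -0.016 after quantile normalization and -0.017 after median centring, which moved the median of all genes to -0.10. It was 0.19 with the covariate, 0.23 in replicates 4 and 5 alone and 0.042 to 0.097 with 1 array left out. The diet difference of the 3' to 5' ratio was 0.49 to 0.75 with 1 array left out. The cause of these changes was not tested. Signal over background was not analysed here.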
